A study of Mus musculus with 23 samples.

Results

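The complement genes C1qa, C1qb, C1qc, C3, C3ar1 and C5ar1 were followed through single cells of the mouse brain. These 6 genes were chosen by name from the 32285 genes of the deposited matrix, and all were found there. Another 47 complement genes, listed by role, are described after them. The cells came from mice dosed intravenously with an Alexa 647-conjugated antibody, and the study was designed to show where in the brain that antibody had gone. C57BL/6J mice received the control IgG (hIgG1 LALAPG). TfR mu/hu KI mice received ATV-TfR (hIgG1 LALAPG ATV35.23.2), and CD98hc mu/hu KI mice received ATV-CD98hc (LALAPG LLB2-10-8 monovalent). Both knock-in lines were on a C57BL/6J background, so antibody and genotype changed together and their effects cannot be told apart. The dose was 45 mg/kg and brains were taken 24 h later, after perfusion with PBS, from mice described as 12 weeks old in the design and 3.3 months old in the labels. Olfactory bulbs, cerebellum, pons and medulla were left out. Brains were dissociated in the presence of actinomycin D and anisomycin, which block transcription and translation, and myelin was removed on sucrose. There were 2 pools per treatment, each from 1 male and 1 female animal. Live cells of each pool were sorted by antibody fluorescence into a negative, a low, a medium and a high bin. The 3 positive bins split the fluorescent cells from ATV-TfR animals into tertiles, and the same gates were applied to the other mice.

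Complement is a cascade of plasma proteins that marks material for removal. The C1q molecule, built from the chains encoded by C1qa, C1qb and C1qc, starts the classical pathway when it binds antibody complexes or other targets, and in the brain it is known mainly as a product of microglia. C3 is the central component at which all pathways meet, and its cleavage and that of C5 release the peptides C3a and C5a. C3ar1 and C5ar1 encode the receptors for these peptides, and are known from myeloid cells. The LALAPG substitutions carried by all 3 antibodies are known to weaken binding of the antibody's Fc part to Fc receptors and C1q.

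The data were 23 libraries of droplet RNA counts. Control IgG had 1 library in its negative bin (replicate 2) and every other group had 2. Library totals ran from 1861238 to 90307818 UMIs, where a UMI marks 1 captured RNA molecule. After quality and doublet filters, 234026 cells remained, 519 to 19342 per library, with a median of 2178 to 4873 UMIs per cell. The smallest libraries were the high and medium bins of control IgG. Cells were clustered without the 6 genes and clusters were named from marker lists. This gave 10611 microglia-like cells, 1989 border macrophage-like cells (the macrophages of meninges and vessels), 233 monocyte-like cells, 253 neutrophil-like cells and 189 dendritic cell-like cells. There were 92074 astrocyte-like and 91958 endothelial-like cells. The microglia-like sub-clusters each held all 10 markers of their list, among them P2ry12, Tmem119 and Cx3cr1. One cluster of 889 cells, led by H2-Eb1, Cd74, H2-Ab1 and H2-Aa, passed no list and is called the H2-Eb1/Cd74-led cluster. Other unnamed clusters held 8911 cells. Levels are counts-per-million values (CPM), the UMIs of a gene relative to all UMIs of a class, given as mean ± SD over pools with at least 20 cells of the class. Since the same cells were clustered and compared, differences between classes are described and carry no test.

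The 3 C1q genes lie next to each other on chromosome 4 of GRCm38, all on the minus strand (GENCODE vM21). C1qb (ENSMUSG00000036905) spans chr4:136880129-136886187, C1qc (ENSMUSG00000036896) chr4:136889804-136893065 and C1qa (ENSMUSG00000036887) chr4:136895917-136898803. C3 (ENSMUSG00000024164) lies at chr17:57203970-57228136, C3ar1 (ENSMUSG00000040552) at chr6:122847138-122856161 and C5ar1 (ENSMUSG00000049130) at chr7:16246743-16259540. Promoter sequences were available for 5 of the 6 genes in RefSeq (GRCm38.p6), as the 250 bases before the start annotated there. RefSeq's starts differ from those of GENCODE. Of the 250 bases, 151 of C1qc, 202 of C5ar1 and 4 of C3ar1 lie inside the GENCODE gene, and none of C1qb or C3. The bases before both starts are shown, 5′ to 3′ on the strand of the gene, for C1qb, C1qc, C3 and C3ar1, so that a C1q chain can be set beside C3 and a receptor. The motif AGGAAGT, which holds the GGAA core that ETS family factors such as PU.1 are known to bind, was searched on both strands. Capitals mark its matches, which all lie on the opposite strand and so read ACTTCCT.
C1qb, chr4:136886201-136886450, minus strand: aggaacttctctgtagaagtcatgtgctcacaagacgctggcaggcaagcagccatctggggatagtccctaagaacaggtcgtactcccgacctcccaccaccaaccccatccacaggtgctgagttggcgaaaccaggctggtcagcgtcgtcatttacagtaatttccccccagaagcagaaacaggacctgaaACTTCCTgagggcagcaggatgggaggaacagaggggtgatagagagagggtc
C1qc, chr4:136893066-136893164, minus strand: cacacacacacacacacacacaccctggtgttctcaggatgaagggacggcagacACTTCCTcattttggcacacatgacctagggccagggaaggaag
C3, chr17:57228137-57228386, minus strand: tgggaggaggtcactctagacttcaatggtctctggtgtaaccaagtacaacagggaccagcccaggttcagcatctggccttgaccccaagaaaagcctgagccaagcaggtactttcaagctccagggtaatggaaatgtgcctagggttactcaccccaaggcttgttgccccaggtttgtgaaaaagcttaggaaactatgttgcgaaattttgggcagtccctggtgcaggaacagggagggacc
C3ar1, chr6:122856162-122856407, minus strand: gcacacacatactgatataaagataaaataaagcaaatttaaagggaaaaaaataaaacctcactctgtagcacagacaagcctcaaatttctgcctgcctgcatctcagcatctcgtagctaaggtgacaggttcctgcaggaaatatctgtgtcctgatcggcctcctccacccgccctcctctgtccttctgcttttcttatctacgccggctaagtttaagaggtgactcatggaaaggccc
C1qb and C1qc held 1 match each. C3 and C3ar1 held none in the window. In C5ar1 (chr7:16259339-16259588, minus strand) there were 2, and both lie inside the GENCODE gene, so its window is not shown. The 48 bases of C5ar1 before both starts held none, as in C3 and C3ar1. C3 and C5ar1 were highest in neutrophil-like cells, and C3ar1 in border macrophage-like cells. Whether matches go with the cell classes described next was not tested. Of 32851 promoters of the same length, 7.69% held the motif on either strand. A match describes the letters of the window and is not evidence of binding.

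C1q RNA was concentrated in microglia-like cells, the H2-Eb1/Cd74-led cluster and border macrophage-like cells, in that order of mean level for each of the 3 chains. C1qa stood at 7940 ± 1314 CPM in microglia-like cells (SD, n = 6 pools), 6342 ± 756.5 CPM in the H2-Eb1/Cd74-led cluster (n = 6) and 4586 ± 570.5 CPM in border macrophage-like cells (n = 6). C1qb followed with 7868 ± 1848, 6096 ± 776 and 3462 ± 491 CPM in the same 3 classes. C1qc had 5255 ± 780.5, 3558 ± 348 and 2817 ± 355 CPM. The intervals of 1 SD around microglia-like cells and the H2-Eb1/Cd74-led cluster overlapped for C1qa and C1qb and not for C1qc. Every other named class was far lower for all 3 chains. The order leaves out the unnamed cells, which held 28339 C1qa UMIs, beside 19026 in border macrophage-like and 237951 in microglia-like cells. Their mean C1qa level was 711 ± 453 CPM (n = 6 pools), with C1qb at 739 ± 493 CPM and C1qc at 491 ± 342 CPM. Among them were 4 immune sub-clusters of 714, 114, 76 and 50 cells that had all 10 microglia markers and were left without a name because they also had markers of astrocytes, oligodendrocytes, or pericytes and smooth muscle. C1qa in these was 3360, 6182, 4832 and 5894 CPM.

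The next class for each chain was the dendritic cell-like one, with C1qa at 250 ± 95.2 CPM, C1qb at 369 ± 76.9 CPM and C1qc at 195.5 ± 51.8 CPM (n = 5 pools). T or NK cell-like cells followed, and their SD was as large as the mean or nearly so. Astrocyte-like cells had 9.38 ± 6.86 CPM of C1qa (n = 5), and endothelial-like cells had 2.84 ± 1.23 CPM. Dividing cells with 2.93 ± 2.05 CPM and erythroid-like cells with 3.43 ± 4.70 CPM (n = 5 each) overlapped the endothelial-like value.

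Within microglia-like cells 1 of the 6 pools stood apart. C1qa was 7008 and 7972 CPM in the ATV-CD98hc pools, 7529 and 8134 CPM in the ATV-TfR pools, and 10360 and 6637 CPM in the control IgG pools. C1qb was 6640 and 7870, 7296 and 8007, and 11330 and 6068 CPM in the same order. C1qc was 4571 and 5381, 5141 and 5508, and 6559 and 4369 CPM. Control IgG pool 1 was the highest for every chain, and it rested on 29 microglia-like cells because its negative bin was not analysed here. The other 5 pools held 1005 or more such cells.

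**Figure D1:**
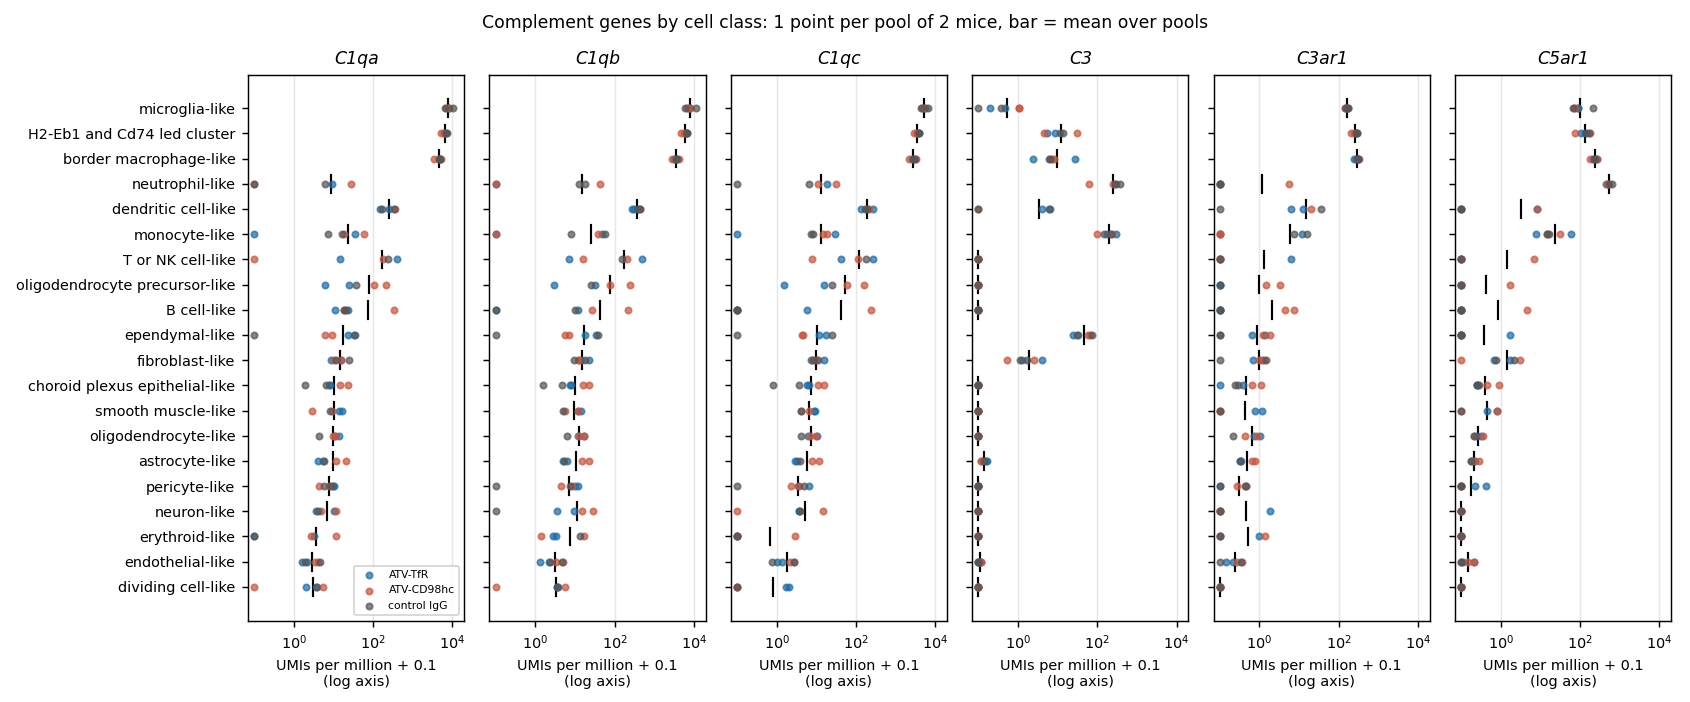
CPM of each cell class plus 0.1 (log axis) for the 6 complement genes, with 1 point per pool coloured by treatment and a bar at the mean over pools. The C1q chains sit between 2817 and 7940 CPM in the 3 highest classes, C3 is highest in neutrophil-like and monocyte-like cells, and C5ar1 is highest in neutrophil-like cells.

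The 3 chains were found together in single cells. All 3 had a UMI in 8842 of 10611 microglia-like cells (83.3%), in 857 of 889 cells of the H2-Eb1/Cd74-led cluster (96.4%) and in 1493 of 1989 border macrophage-like cells (75.1%). In dendritic cell-like cells the share was 10.6%. Astrocyte-like cells, which are not known as a source of C1q, gave 0.106%, and endothelial-like cells 0.0381%. Median depth was 2815 UMIs per cell in microglia-like, 1766 in border macrophage-like, 3958 in astrocyte-like and 3341 in endothelial-like cells, so the 2 classes with low shares were the deeper ones. When every cell was thinned to 1000 UMIs, C1qa had a UMI in 91.9% of microglia-like cells (90.8% before thinning), 91.3% of border macrophage-like cells (92.7%), 97.0% of the H2-Eb1/Cd74-led cluster (98.1%) and 1.01% of astrocyte-like cells (3.22%). Thinning left out 875 microglia-like, 211 border macrophage-like, 12 H2-Eb1/Cd74-led and 701 astrocyte-like cells that were shallower.

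The balance of the 3 chains differed between the macrophage classes. C1qa, C1qb and C1qc made up 37.9%, 36.6% and 25.5% of C1q UMIs in microglia-like cells. The H2-Eb1/Cd74-led cluster was close to this, with 39.7%, 38.2% and 22.1%. Border macrophage-like cells had 42.0%, 32.1% and 25.9%, a smaller part of C1qb. In astrocyte-like cells the shares were 36.0%, 42.2% and 21.8%.

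Low C1q counts in other classes were set beside the microglia marker list, which holds genes known from microglia. Microglia-like cells had 33.7 to 35.3 C1qa UMIs per 100 UMIs of that list, depending on the treatment. Astrocyte-like cells had 4.31 to 11.1 and endothelial-like cells 2.09 to 3.08 on the same scale, below the ratio of microglia-like cells. Border macrophage-like cells had 77.2 to 93.5. A single marker made up 53.6% to 90.1% of the list's UMIs in the negative and high libraries of astrocyte-like cells and 68.6% to 97.0% in those of endothelial-like cells, so the ratio there rests largely on 1 gene. The part of RNA from other cells in the low counts of astrocyte-like and endothelial-like cells was not tested.

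Among the microglia-like sub-clusters, C1qa ranged from 1945 CPM (95% exact Poisson interval 1894 to 1996) to 9575 CPM (9485 to 9666), where the intervals cover counting error only. The lowest was a sub-cluster of 1793 cells with a median of 1330 UMIs per cell. C1qb there was 1659 CPM and C1qc 1140 CPM, so all 3 chains were low together. A sub-cluster of similar depth, with 1389 cells and a median of 1384 UMIs, had 5860 CPM of C1qa. The sub-cluster whose leading genes include Ccl3 and Ccl4, chemokine genes known from activated microglia, had 8150 CPM of C1qa, inside the range of the others.

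C3 was highest in other classes. It led in neutrophil-like cells, at 254 ± 117 CPM (n = 5 pools), followed by monocyte-like cells at 197 ± 72.6 CPM (n = 6) and ependymal-like cells, which line the ventricles, at 46.9 ± 20.8 CPM (n = 6). In neutrophil-like cells it was 250.9 and 62.5 CPM in the ATV-CD98hc pools, 299 CPM in the 1 ATV-TfR pool with enough cells, and 279 and 379 CPM in the control IgG pools. In monocyte-like cells it was 238 and 100.2, 176 and 305, and 145 and 218 CPM in the pools of ATV-CD98hc, ATV-TfR and control IgG. The neutrophil-like and monocyte-like levels overlapped, and the ependymal-like pools, from 23.7 to 73.5 CPM, lay below every monocyte-like pool and overlapped the lowest neutrophil-like pool.

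The H2-Eb1/Cd74-led cluster and border macrophage-like cells had 12.4 ± 9.98 and 9.44 ± 8.87 CPM of C3, and their SD was nearly as large as the mean. Fibroblast-like cells had 1.75 ± 1.22 CPM. Microglia-like cells had 0.44 ± 0.415 CPM, from 16 UMIs in 10611 cells, and astrocyte-like cells 0.0379 ± 0.0227 CPM. No C3 UMI was found in choroid plexus epithelial-like, oligodendrocyte-like, pericyte-like or smooth muscle-like cells. For the share of such cells with a C3 UMI at the depth sequenced, a count of 0 allows up to 0.0677%, 0.0415%, 0.0454% and 0.133%, counting error only, which is no limit on the cells that express C3. Neurons, B cells, T or NK cells, erythroid, dividing and oligodendrocyte precursor-like cells also had none, and there 0.437% to 1.18% is allowed in the same sense.

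C3 was uneven among the neutrophil-like cells. Sub-clusters are called here by 2 of their 10 leading genes. Both neutrophil-like ones were led by S100a9 and S100a8, and all 3 border macrophage-like ones have Mrc1, Pf4 and F13a1 among their leading genes. The sub-cluster marked by Ngp and Camp, granule genes of immature neutrophils, had 398 CPM (95% exact Poisson interval 342 to 460, 106 cells). The sub-cluster marked by Il1b and Cxcl2 had 62.0 CPM (36.8 to 98.0, 147 cells). Monocyte-like cells stood between them at 204.5 CPM (174 to 238.5).

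The receptor genes divided the myeloid classes in another way. C3ar1, the C3a receptor, was highest in border macrophage-like cells at 292 ± 30.0 CPM, then in the H2-Eb1/Cd74-led cluster at 261 ± 31.4 CPM, and then in microglia-like cells at 159 ± 13 CPM (n = 6 each). The first and second of these overlapped within 1 SD. The border macrophage-like pools were 324, 308, 244, 268, 303 and 306 CPM and the microglia-like pools 148, 158, 148, 176, 173 and 150 CPM, in the order ATV-CD98hc, ATV-TfR and control IgG, and the ranges were apart. Dendritic cell-like cells had 14.9 ± 14.0 CPM, monocyte-like cells 5.86 ± 7.01 CPM and neutrophil-like cells 1 UMI.

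C5ar1, the C5a receptor, was highest in neutrophil-like cells at 525 ± 75.3 CPM (n = 5 pools), with values of 469 and 516, 453, and 546 and 643 CPM. Border macrophage-like cells had 233 ± 35.1 CPM, the H2-Eb1/Cd74-led cluster 134 ± 38.6 CPM and microglia-like cells 102 ± 55.7 CPM (n = 6 each). The border macrophage-like pools were 178, 268, 269, 213, 245 and 225 CPM. The microglia-like pools were 76.8 and 72.4, 91.1 and 90.7, and 214 and 66.9 CPM. The microglia-like pool at 214 CPM was control IgG pool 1, the one of 29 cells, and the other 5 lay below all border macrophage-like pools. Monocyte-like cells had 23.8 ± 18.8 CPM, so neutrophil-like and monocyte-like cells, alike in C3, differed in C5ar1 in every pool.

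After thinning to 1000 UMIs, C5ar1 had a UMI in 45.5% of neutrophil-like cells (67.2% before thinning), 19.0% of border macrophage-like cells (29.8%), 6.82% of microglia-like cells (16.9%) and 0.0142% of astrocyte-like cells (0.0478%). C3ar1 had one in 24.6% of border macrophage-like cells (40.2% before thinning), 13.5% of microglia-like cells (30.8%) and 0.0383% of astrocyte-like cells (0.147%). C3 had one in 14.2% of both neutrophil-like and monocyte-like cells, in 2.66% of ependymal-like cells and in 0.0205% of microglia-like cells. The order of the classes was that of the CPM values.

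Both receptors varied inside the classes. C5ar1 was 896 CPM in the Il1b/Cxcl2-marked neutrophil-like sub-cluster (95% exact Poisson interval 790 to 1011) and 297 CPM in the Ngp/Camp-marked one (249.5 to 352), the reverse of the order for C3. Neither sub-cluster had more than 1 C3ar1 UMI. In microglia-like cells the Ccl3/Ccl4-marked sub-cluster had 146 CPM of C5ar1 (137 to 157) and 240 CPM of C3ar1 (228 to 253.5), the highest of the microglia-like sub-clusters for both. Another sub-cluster, of 1184 cells, had 86.8 CPM of C5ar1 and 159.5 CPM of C3ar1. Among border macrophage-like sub-clusters C5ar1 was 267 CPM in the Lyve1/Cd163-marked (243 to 293), 208 CPM in the Ifi207/Adam33-marked (189.7 to 227) and 158 CPM in the Wfdc17/Ccl24-marked one (78.8 to 283). The last held 57 cells with a median of 1061 UMIs, and its C5ar1 and C3ar1 values rest on 11 UMIs each. The Ifi207/Adam33-marked sub-cluster rests on 5 of the 10 border macrophage markers.

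**Figure D2:**
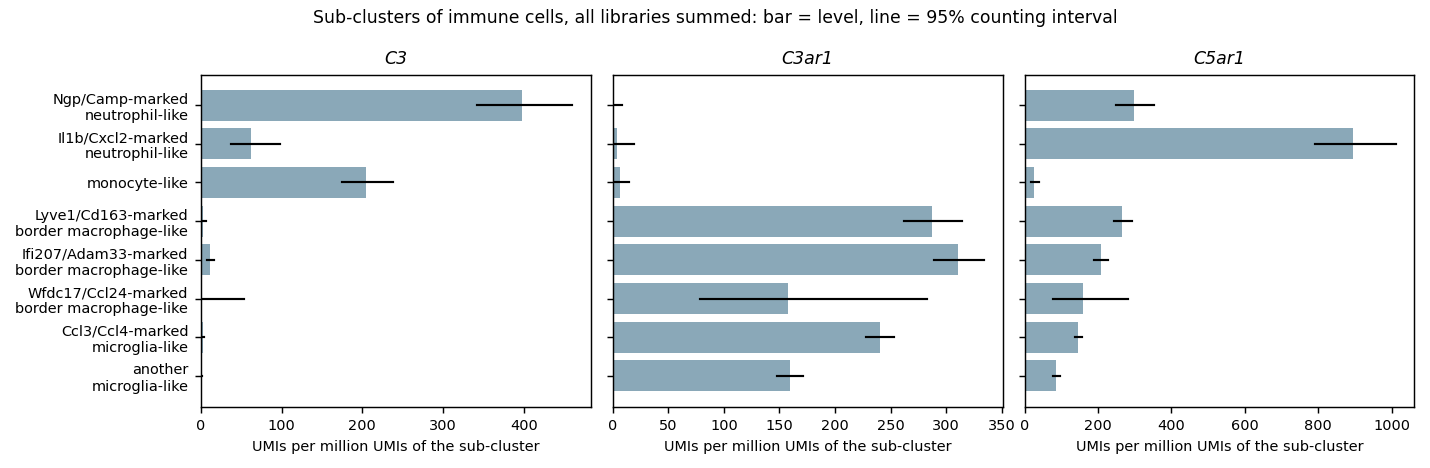
CPM of 8 immune sub-clusters, all libraries summed, for C3, C3ar1 and C5ar1, with bars for the level and lines for the 95% exact Poisson interval, which covers counting error only. C3 peaks in the Ngp/Camp-marked neutrophil-like cells (398 CPM), C5ar1 in the Il1b/Cxcl2-marked ones (896 CPM), and C3ar1 is higher in the border macrophage-like and microglia-like rows than in the neutrophil-like and monocyte-like ones.

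Genes with the most similar pattern were found from 60 sums over class and treatment and 16910 genes, by Pearson correlation of log values. These sums share libraries and depth, so the coefficients are descriptions. For C1qa genes with a near pattern outside the 6 were Hpgds (r = 0.946), Fcrls (0.928) and Gpr34 (0.927). For C3 they were Hp (0.896), Gm31814 (0.857), Gm5150 (0.840) and Fpr2 (0.838). C3ar1 was closest to Abcc3 (0.920) and Gm15523 (0.919), and C5ar1 to Siglece (0.938) and Clec5a (0.926). Fcrls and Gpr34 also belong to the microglia marker list.

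The bins of antibody fluorescence were then compared within each class, on UMIs summed per library. A gene is called when its adjusted p in edgeR's quasi-likelihood test (Benjamini-Hochberg over all genes tested) is below 0.05. In microglia-like cells the C1q genes, C3ar1 and C5ar1 passed the filter on low counts and C3 did not. None of the 5 was called in any of 6 comparisons between bins or 3 between treatments in the negative bin. Among all 10783 genes, 2.61% were called between the high and negative bins of ATV-CD98hc, 0.594% between its medium and negative bins and 0.918% between its low and negative bins. The share was 4.13% for the medium and 2.25% for the low bin of ATV-TfR against its negative bin, and 0.918% for the low bin of control IgG. Between treatments in the negative bin it was 0.0185%, 0.0927% and 0.0278%. Comparisons within a treatment share their negative libraries. At an unadjusted p below 0.05 there were 2 members in the ATV-CD98hc high bin (C3ar1 and C5ar1), C5ar1 alone in 4 other comparisons, and none in the low bin of ATV-CD98hc or in the negative bins. Many other genes were below it too. Of the 10783 genes, these were 1431, 853 and 680 in the high, medium and low bins of ATV-CD98hc. They were 1789 and 1115 in the medium and low bins of ATV-TfR, and 1423 in the low bin of control IgG. DESeq2 called C5ar1 in the low bin of control IgG and the medium bin of ATV-TfR and no member in the other 7. High bins of ATV-TfR and control IgG had too few microglia-like cells for a test.

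The levels of C1q overlapped between bins. In ATV-TfR mice C1qa was 7451 and 7909 CPM in the negative bin, 7886 and 9276 CPM in the low bin and 9418 and 7599 CPM in the medium bin. In ATV-CD98hc mice it was 6381 and 8726 CPM in the negative bin, 7568 and 7910 CPM in the low bin, 5502 and 7501 CPM in the medium bin and 7147 and 7367 CPM in the high bin. In control IgG mice it was 6618 CPM in the 1 negative library and 10190 and 7176 CPM in the low bin, which held 26 and 24 cells. The fitted log2 differences of C1qa from the negative bin ran from -0.17 (SE 0.257) in the medium bin of ATV-CD98hc to 0.45 (SE 0.321) in the low bin of control IgG. C1qb gave its widest difference, 0.68 (SE 0.338, adjusted p = 0.39), in that same low bin.

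No difference between treatments was called in the negative bins. C1qa differed by 0.02 (log2, SE 0.256) between ATV-TfR and ATV-CD98hc, by 0.24 (SE 0.316) between ATV-TfR and control IgG, and by 0.21 (SE 0.316) between ATV-CD98hc and control IgG, with an adjusted p of 1 each.

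C5ar1 lay above the negative bin in most positive libraries of microglia-like cells, without passing the test. In ATV-TfR mice it was 88.4 and 81.1 CPM in the negative bin, 104 and 124 CPM in the low bin and 180.5 and 126 CPM in the medium bin. Every library of the low and medium bins lay above both negative ones. The log2 difference was 0.91 (SE 0.283, adjusted p = 0.067) for the medium bin and 0.50 (SE 0.189, adjusted p = 0.22) for the low bin. In ATV-CD98hc mice C5ar1 was 63.4 and 76.1 CPM in the negative bin, 74.6 and 67.0 in the low, 122 and 99.1 in the medium and 83.2 and 177 CPM in the high bin. The medium bin gave 0.80 (SE 0.245, adjusted p = 0.17), the high bin 0.87 (SE 0.326, adjusted p = 0.19) and the low bin 0.11 (SE 0.206, adjusted p = 0.97). In control IgG mice the negative library had 65.5 CPM and the low libraries 219 and 120 CPM, from 20 and 11 UMIs, a difference of 1.43 (SE 0.376, adjusted p = 0.058).

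Same-numbered libraries of a treatment hold cells of the same mice, and with that pairing as a block the call changed for 3 of these values. C5ar1 in the medium bin of ATV-TfR was then called (0.91, adjusted p = 0.014), as was C5ar1 in the medium bin of ATV-CD98hc (0.81, adjusted p = 0.022) and C3ar1 in its high bin (0.78, adjusted p = 0.022). C3ar1 there was 182 and 283 CPM against 129 and 149 CPM in the negative bin, without overlap, and its adjusted p was 0.13 (SE 0.267) without the block. The high libraries held 63 and 30 microglia-like cells. For comparisons of bins, shares of all genes called are given throughout for the fit without the block only. How many other genes the block called is therefore not shown beside these calls. Leaving out ATV-CD98hc replicate 1 took C5ar1 in the medium bin to 0.41 (adjusted p = 1), and leaving out control IgG replicate 1 took C5ar1 in the low bin of control IgG to 0.89 (adjusted p = 0.72). C5ar1 in the low bin of control IgG was called with RLE scaling factors (adjusted p = 0.036), with DESeq2 (0.0051), without the filter on low counts (0.034), and without ATV-CD98hc replicate 1 (0.034) or replicate 2 (0.019). C5ar1 in the medium bin of ATV-TfR was called with RLE factors (0.042), DESeq2 (0.018), and without ATV-CD98hc replicate 1 (0.038) or 2 (0.027).

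Markers of other cells moved with the bins in these cells. The summed monocyte list was 148 to 239 CPM in the negative libraries, 395 and 519 CPM in the low and 895 and 1075 CPM in the medium bin of ATV-TfR, and 241 and 219 CPM in the low, 365 and 1257 CPM in the medium and 563 and 725 CPM in the high bin of ATV-CD98hc. It was 1086 and 663 CPM in the low bin of control IgG. Between 2 and 7 of its 8 markers had a UMI in a library, and Lyz2, which macrophages also express, made up 72.4% to 99.4% of its UMIs. Chil3, a defining marker of the list, was at 0 in all 17 libraries, and Ly6c2 in all but the low replicate 2 of ATV-CD98hc. The summed astrocyte list was 418 to 564 CPM in the negative libraries, 876 and 938 CPM in the low bin of ATV-TfR, 712 and 1199 CPM in the low bin of ATV-CD98hc, and 127 and 115 CPM in its high bin. The part of these lists in the receptor values was not tested.

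Sub-clusters of the microglia-like class also shifted with the bin. The Ccl3/Ccl4-marked sub-cluster, the one highest in C5ar1 and C3ar1, made up 9.28% of microglia-like cells in the negative bin of ATV-TfR, 16.2% in the low bin and 37.9% in the medium bin. In ATV-CD98hc it was 9.53% in the negative, 6.70% in the low, 31.8% in the medium and 63.4% in the high bin. In control IgG it was 12.8% in the negative and 62.0% in the low bin. A further pair of sub-clusters held most cells of the low bins of both ATVs and few of the negative bins. One made up 36.8% and 37.8% of the low bins of ATV-TfR and ATV-CD98hc and 1.09% and 2.50% of their negative bins, and had 9077 CPM of C1qa. The other, with 1384 UMIs per cell, made up 24.6% and 34.2% of the low bins and 1.07% and 1.93% of the negative bins.

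**Figure D3:**
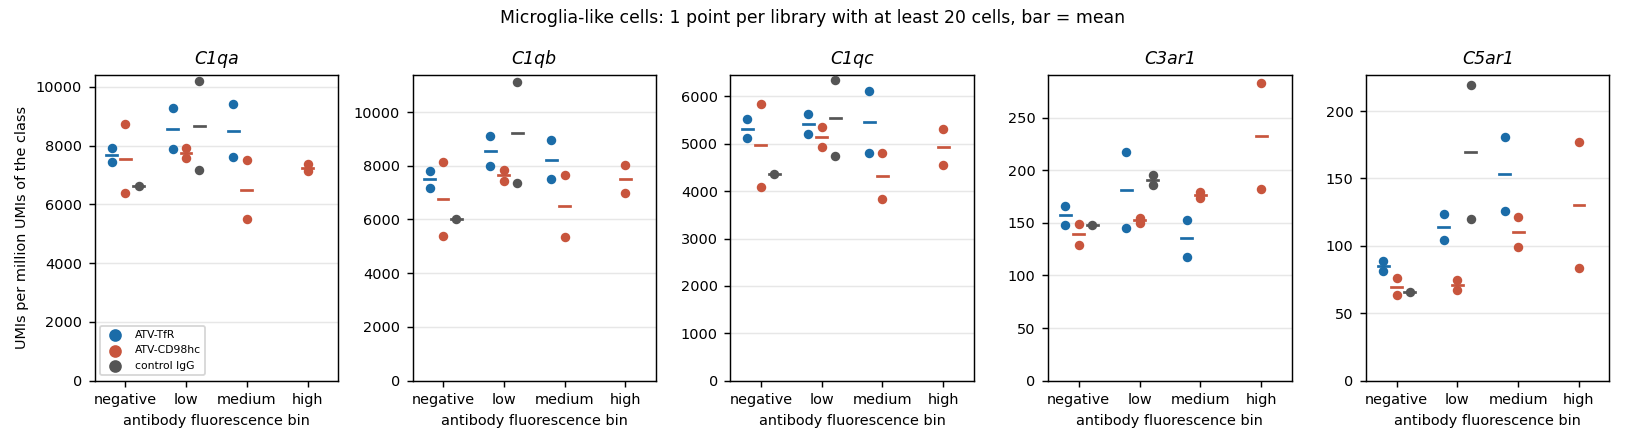
CPM of microglia-like cells by fluorescence bin, with 1 point per library of at least 20 cells, coloured by treatment, and a bar at the mean. The points of the C1q genes overlap between bins, and the positive bins of C5ar1 reach 219 CPM against 63.4 to 88.4 CPM in the negative bins.

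The bin effects were compared between treatments in the same fit. No member was called in 7 such differences. In microglia-like cells 0.139% and 0.25% of genes were called for the low bin in ATV-TfR and ATV-CD98hc, each minus control IgG, and 0.00927% in both differences between the ATVs. In border macrophage-like cells the share was 0% to 0.37%. C5ar1 in microglia-like cells gave the lowest adjusted p, 0.27, for the low bin against the negative bin in ATV-CD98hc minus control IgG (log2 difference -1.32, SE 0.422). At an unadjusted p below 0.05 there were 3 such values, all of C5ar1, the others being ATV-TfR minus control IgG in the same cells (-0.92, SE 0.409) and in the high against the low bin of border macrophage-like cells (0.92, SE 0.443). Of all 10783 genes in microglia-like cells, 1019 were below it in ATV-CD98hc minus control IgG and 771 in ATV-TfR minus control IgG. In border macrophage-like cells 300 of 5136 genes were below it in ATV-TfR minus control IgG. Female and male cells of a pool were also separated by sex-specific RNA and compared over 5 pools, where 0.187% of 11253 genes were called and none of the 5 members. C1qa differed by 0.05 (female minus male, log2, SE 0.0317) and C1qb by 0.07 (SE 0.0349, unadjusted p = 0.045, adjusted p = 1). Of the 11253 genes compared between the sexes, 515 had an unadjusted p below 0.05. Control IgG pool 1, with 12 female and 6 male cells, was left out.

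In border macrophage-like cells C1qc was called lower in the high bin of ATV-CD98hc mice, and C1qa and C1qb were called in no treatment. Negative bins held too few of these cells, so the high bin was set against the low bin, a comparison chosen after cell numbers were known. C1qc fell in ATV-CD98hc mice, from 3407 and 4175 CPM in the low bin to 1550 and 2706 CPM in the high bin, with 2351 and 2898 CPM in the medium bin between them. The log2 difference was -0.92 (SE 0.254, adjusted p = 0.027), and the low and high libraries did not overlap. It was the 1 member called of 5 tested, where 3.8% of 5136 genes were called, 2.8% lower.

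C1qb in the same ATV-CD98hc cells was 4096 and 4944 CPM in the low bin and 1902 and 4034 CPM in the high bin, a difference of -0.69 (SE 0.267, adjusted p = 0.15), and it was called with the pairing of libraries as a block (-0.76, adjusted p = 0.025). It was -0.32 (adjusted p = 0.68) without ATV-CD98hc replicate 1 and -1.16 (adjusted p = 0.013) without replicate 2. C1qa was 4744 and 5722 CPM in the low and 2915 and 4984 CPM in the high bin (-0.49, SE 0.259, adjusted p = 0.35). Replicate 1 of the high bin was the lowest library for all 3 chains. Without ATV-CD98hc replicate 1, C1qc gave -0.65 (adjusted p = 0.29) and lost its call. Leaving out replicate 1 (adjusted p = 0.088) or 2 (0.089) of ATV-TfR also ended the call, which leaves the value at -0.90. It was lost among cells with at least 1500 UMIs (-0.83, adjusted p = 0.15) and among cells without UMIs of the endothelial list (-1.11, adjusted p = 0.062).

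The other treatments had the same sign without a call. C1qc was 2973 and 3049 CPM in the low bin of ATV-TfR and 2326 and 2072 CPM in its high bin (-0.43, SE 0.259, adjusted p = 0.67). In control IgG it was 3991 and 3253 CPM in the low bin and 2475 and 2557 CPM in the high bin (-0.52, SE 0.245, adjusted p = 0.21). No member was called in either, with 0.487% and 9.17% of genes called. At an unadjusted p below 0.05 there was none in ATV-TfR and C1qc in control IgG, and DESeq2 called none in either. Of all 5136 genes, 475 in ATV-TfR and 1052 in control IgG were below it. The difference of the C1qc effect between ATV-CD98hc and control IgG was -0.40 (adjusted p = 0.96). Between the high bins, each ATV was also set against control IgG, and no member was called (0.565% of genes for ATV-TfR and 0.156% for ATV-CD98hc). C5ar1 and C3ar1 had adjusted p values of 0.56 or more in all 5 comparisons of this class.

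The border macrophage-like class held different sub-clusters in the bins compared. The Ifi207/Adam33-marked sub-cluster made up 88.6% of the high and 24.0% of the low bin in ATV-CD98hc, 72.7% and 26.2% in ATV-TfR, and 96.8% and 16.7% in control IgG. C1qc was 2418 CPM in that sub-cluster (95% exact Poisson interval 2356 to 2481) and 3334 CPM in the Lyve1/Cd163-marked one (3247 to 3423), which held most of the low bins. The Wfdc17/Ccl24-marked sub-cluster had 4853 CPM (4349 to 5399) and made up 10.6% of the low and 1.49% of the high bin of ATV-CD98hc. The summed endothelial list was 251 and 293 CPM in the low and 599 and 478 CPM in the high bin of ATV-CD98hc, and 264 and 249 against 933 and 1141 CPM in ATV-TfR. In control IgG it was 365 and 403 CPM in the low and 186 and 163 CPM in the high bin. Pltp was its leading gene in each of these libraries, and 7 of its 10 markers, Cldn5 and Kdr among them, were at 0 in the high replicate 1 of control IgG. The part of these differences in the C1qc values was not tested.

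**Figure D4:**
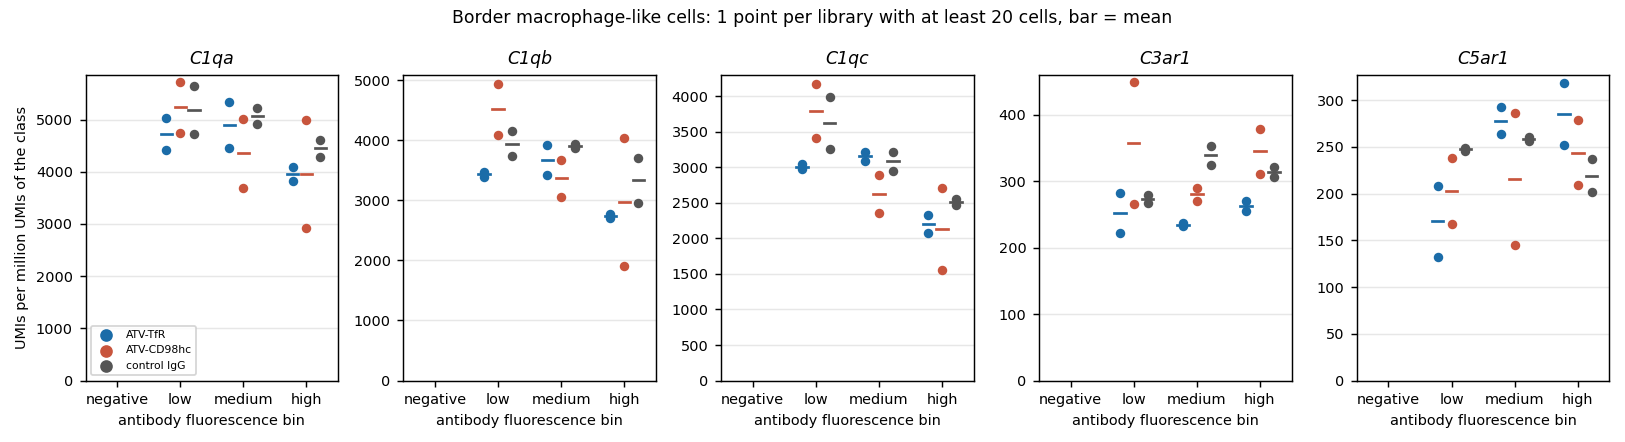
CPM of border macrophage-like cells by fluorescence bin, with 1 point per library of at least 20 cells, coloured by treatment, and a bar at the mean. C1qc is lower in the high bin than in the low bin of each treatment, most in ATV-CD98hc (1550 and 2706 against 3407 and 4175 CPM).

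C1q counts outside the macrophage classes were small, and several differed between bins. In endothelial-like cells of ATV-TfR mice, C1qa was 20.6 and 27.9 CPM in the negative bin, from 7 and 6 UMIs in 76 and 52 cells, and 1.51 and 0.984 CPM in the high bin. C1qb was 26.5 and 32.6 CPM against 1.56 and 0.784 CPM. Both were called lower in the high bin (-4.10, SE 0.595, adjusted p = 3.9e-05 and -4.49, SE 0.608, adjusted p = 1.2e-05), 2 of 4 members tested where 6.67% of genes were called, 4.71% lower. C1qc was not called (-1.97, SE 1.40, adjusted p = 0.52). DESeq2 called C3ar1 as well (-5.88), but in edgeR its sign turned without ATV-TfR replicate 1 (3.06, adjusted p = 0.96). Neither C1qa nor C1qb was called when more suspected doublets were removed (-2.54, adjusted p = 0.39 and -3.67, adjusted p = 0.071). In ATV-CD98hc mice C1qb fell from 16.4 and 20.0 CPM, 4 and 3 UMIs, to 1.19 and 1.02 CPM (-3.82, SE 0.853, adjusted p = 0.007) and C1qc fell as well, from 2 and 3 UMIs in the negative libraries (-4.22, SE 1.08, adjusted p = 0.023), 2 of 4 members tested. C1qa did not share this pattern, with 0 UMIs in the 67 and 47 negative cells and 41 and 36 UMIs, 1.04 and 0.818 CPM, in the high bin (adjusted p = 0.74). The median log2 difference of the 4 members was 0.09, which describes none of them. C1qa (7.01, SE 7.47) and C3ar1 (3.99, SE 14.3) had an SE larger than the difference, and C1qb and C1qc were lower. Here 4.2% of genes were called, 2.77% lower. These 2 calls were lost without either ATV-CD98hc replicate and with at least 50 cells per library. The control IgG negative library, with 2345 endothelial-like cells, had 7.54 CPM of C1qa.

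The summed microglia list in these endothelial-like cells was 239 and 163 CPM in the negative and 72.0 and 92.75 CPM in the high bin of ATV-TfR. In ATV-CD98hc it was 102 and 140 against 116 and 115.5 CPM. Of its 10 markers, 9 and 7 had a UMI in the negative bin of ATV-TfR, with Tmem119 at 0 in replicate 1 and P2ry13, Olfml3 and Fcrls at 0 in replicate 2, and all 10 in its high bin. In the negative bin of ATV-CD98hc 5 and 5 had a UMI, with Fcrls, Olfml3 and P2ry13 at 0 in both. The part of microglial RNA in the C1q values was not tested.

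Astrocyte-like cells of ATV-TfR mice gave the same direction with more cells. C1qa was 16.0 and 20.3 CPM in the negative bin and 1.07 and 0.793 CPM in the high bin, from 4 and 2 UMIs (-4.14, SE 0.610, adjusted p = 8.6e-05). C1qb fell by 3.98 and C1qc by 4.53 on the log2 scale (adjusted p = 9e-06 and 1.1e-05). These were 3 of 4 members tested, beside 21.5% of all genes, 8.4% lower. In ATV-CD98hc mice no member was called by edgeR (C1qb and C1qc at an unadjusted p below 0.05, and none by DESeq2), where 10.4% of genes were called. Of all 16173 genes, 3578 had an unadjusted p below 0.05 there. C1qb there was 5.90 and 9.14 CPM in the negative bin and 1 and 0 UMIs in the high bin (-3.53, adjusted p = 0.06), and was called with the pairing of libraries as a block (-3.56, adjusted p = 0.019). It ran from -10.81 without ATV-CD98hc replicate 1 (adjusted p = 0.063) to -2.38 without replicate 2 (adjusted p = 0.3).

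The summed microglia list in these astrocyte-like cells was 168.5 and 133.9 CPM in the negative and 97.4 and 120.1 CPM in the high bin of ATV-TfR. All 10 markers had a UMI in the negative libraries, while Tmem119, Siglech and Gpr34 were at 0 in both high libraries. In ATV-CD98hc the list was 100.8 and 115.2 against 103.9 and 103.0 CPM, with Tmem119, Gpr34, P2ry13 and Fcrls at 0 in both high libraries. The summed endothelial list moved the other way, from 25.1 and 20.7 to 2025 and 1349 CPM in ATV-TfR and from 23.7 and 26.4 to 1748 and 1593 CPM in ATV-CD98hc, with all 10 markers present in the high libraries. The part of either in the C1q values was not tested.

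In fibroblast-like cells C1qa was called in control IgG, in the high bin against the 1 negative library (4.99, SE 1.65, adjusted p = 0.046, beside 12.6% of genes, 5.19% higher). It was the 1 member called of 4 tested. C1qb was not called, and its log2 difference ran from 3.46 to 4.21 with 1 replicate left out. The summed border macrophage list was 313.5 CPM in pool 2, with all markers but Folr2 present, 97.3 CPM in pool 1 and 285.5 CPM in the negative library, where Mrc1 and Pf4 were among 8 of 10 markers at 0. Its part was not tested. The call rests on 1 library. The high bin of pool 2 had 88 C1qa UMIs, 147 CPM, while pool 1 had 1 UMI in 56 cells and the negative library 1 UMI in 76 cells. It was lost without any 1 of the 4 ATV replicates (adjusted p of 0.054 to 0.059) and in DESeq2 (0.16). Negative and high cells also came from different fibroblast-like clusters, described with Vtn. No member was called in the fibroblast-like cells of ATV-CD98hc mice by edgeR or DESeq2, where 10% of genes were called and C5ar1 alone had an unadjusted p below 0.05 (0.029). Of all 11634 genes, 2599 were below it.

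The other 47 complement genes were read in the same fits. They comprise 7 components of the classical pathway, 8 of the lectin pathway, 3 of the alternative pathway, 7 terminal components, 6 regulators in body fluids, 7 regulators on membranes and 9 further receptors. C4a and C4b are near-identical copies, so their counts may be divided uncertainly between them.

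The sources of these genes were spread over many classes. Among classical components, C4b was highest among myeloid classes in border macrophage-like cells at 171 ± 38.3 CPM, while C1ra (41.4 CPM) was led by fibroblast-like cells and C1s1 (84.5 CPM) by smooth muscle-like cells. C2 stood at 59.6 CPM in fibroblast-like and 58.8 CPM in border macrophage-like cells. Of the soluble regulators, Clu, clusterin, was led by astrocyte-like cells at 2858 CPM, Vtn, vitronectin, by pericyte-like cells at 10920 CPM, and Serping1, the C1 inhibitor, by fibroblast-like cells at 547 CPM. Cfp, properdin, had 127 CPM in dendritic cell-like and 90.7 CPM in neutrophil-like cells, and Cfb 20.9 CPM in monocyte-like cells. Hc, which encodes C5, had its highest value of 35.5 CPM in ependymal-like cells.

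Receptors other than the members followed the myeloid classes in part. Itgam, a chain of complement receptor 3, had 675 ± 84.6 CPM in microglia-like cells. C5ar2, the other C5a receptor, had 65.5 ± 7.56 CPM there and 46.9 CPM in neutrophil-like cells. Itgax, a chain of complement receptor 4, was led by dendritic cell-like cells at 154 CPM. Vsig4 had 11.7 CPM in border macrophage-like cells.

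**Figure D5:**
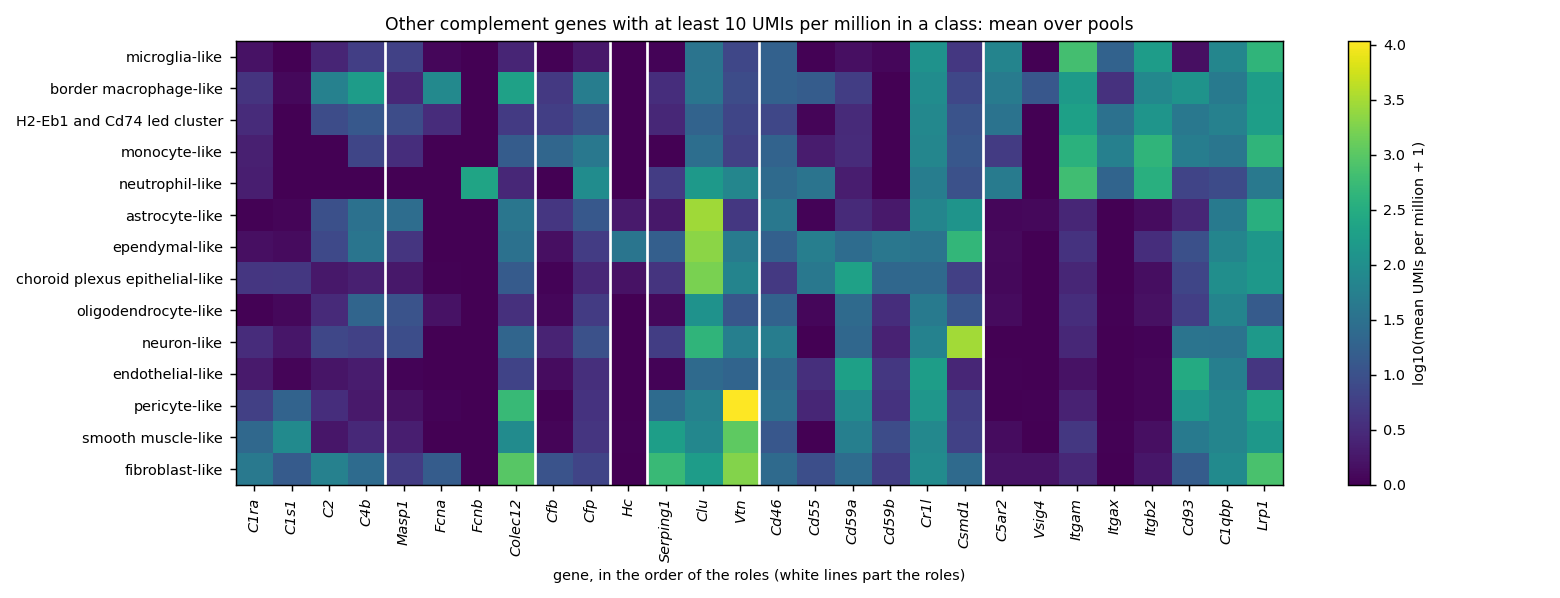
Mean level of the other complement genes in each cell class, as log10 of the mean CPM over pools plus 1 (colour), for genes with at least 10 CPM in some class and ordered by role (1 gene left out). Vtn in pericyte-like cells (10920 CPM), Clu in astrocyte-like cells (2858 CPM) and Csmd1 in neuron-like cells (2971 CPM) stand out, and microglia-like cells carry Itgam.

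In microglia-like cells 15 of the 47 genes passed the filter. Itgax rose in 2 bins of each ATV, the medium and low ones for ATV-TfR and the high and medium ones for ATV-CD98hc. In ATV-TfR mice it was 4.27 and 4.15 CPM in the negative bin, 23.6 and 37.0 CPM in the low bin and 54.9 and 81.0 CPM in the medium bin. The log2 differences were 2.90 (SE 0.371, adjusted p = 4.9e-06), a call kept in every setting run, and 4.17 (SE 0.528, adjusted p = 5.1e-06), which ended when replicate 2 of ATV-TfR was left out (3.77, adjusted p = 0.13). In ATV-CD98hc mice it was 3.41 and 4.75 CPM in the negative, 7.80 and 6.49 CPM in the low (0.97, SE 0.558, adjusted p = 0.89, not called), 25.3 and 12.8 CPM in the medium and 27.8 and 79.6 CPM in the high bin. The high bin gave 3.67 (SE 0.703, adjusted p = 0.0024), lost without ATV-CD98hc replicate 1 or 2 and among cells without UMIs of the endothelial list (2.65, adjusted p = 0.64). The medium bin gave 2.56 (SE 0.617, adjusted p = 0.043), lost without ATV-CD98hc replicate 1 (1.45, adjusted p = 1) and ATV-TfR replicate 2 (0.056).

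Other values moved with Itgax in these 4 bins. Itgax was 39.2 CPM in the Ccl3/Ccl4-marked sub-cluster, from 219 UMIs, and 0 to 5.28 CPM in the other microglia-like ones. That sub-cluster was 16.2% (low) and 37.9% (medium) of the cells in ATV-TfR beside 9.28% of its negative cells, and 31.8% (medium) and 63.4% (high) in ATV-CD98hc beside 9.53%. The summed monocyte list was 365 to 1257 CPM in the 8 libraries of these bins against 148 to 239 CPM in the negative ones. The summed dendritic cell list was not higher, at 0 to 19.8 CPM in the 8 libraries and 20.97 to 28.5 CPM in the negative ones. Its sums in the medium and high libraries rest on 0 to 10 UMIs. Cd209a and Ccr7 of that list were at 0 in all 8, and also in every negative library but replicate 1 of ATV-CD98hc. The part of the sub-cluster shift and of the monocyte list in the Itgax values was not tested.

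Clu, known as an astrocyte product, also rose in the low bins of microglia-like cells. It was 53.6 and 65.9 CPM against 22 and 33 CPM in ATV-TfR mice (1.24, SE 0.257, adjusted p = 0.0036) and 53.7 and 78.5 against 27.8 and 38.0 CPM in ATV-CD98hc mice (1.15, SE 0.265, adjusted p = 0.019). DESeq2 called neither, and each was lost without either replicate of its treatment. The summed astrocyte list was higher in the same low libraries, 876 and 938 CPM in ATV-TfR and 712 and 1199 CPM in ATV-CD98hc against 418 to 564 CPM in the negative ones, and its part in the Clu values was not tested. In the low bin of ATV-TfR, Vtn fell from 14.2 and 6.84 CPM to 1 UMI in each low library (adjusted p = 0.046), a call lost in most settings. Across the bins of microglia-like cells, 1 of the 15 genes was higher and none lower in the high, medium and low bins of ATV-CD98hc and the medium bin of ATV-TfR, and 2 were higher and 1 lower in the low bin of ATV-TfR. Of all genes, 2.17%, 0.492% and 0.76% were called higher in the high, medium and low bins of ATV-CD98hc, and 3.66% and 2.03% in the medium and low bins of ATV-TfR. The shares called lower were 0.436%, 0.102% and 0.158% in ATV-CD98hc, and 0.464% and 0.223% in ATV-TfR, in the same order of bins. In the low bin of control IgG and in the negative bins edgeR called none.

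In border macrophage-like cells 5 of 14 genes fell from the low to the high bin of control IgG and none rose, beside 4.42% of all genes lower and 4.75% higher. Colec12, a scavenger receptor of the collectin family, was 365 and 423 CPM in the low bin and 67.0 and 40.2 CPM in the high bin (-2.93, SE 0.282, adjusted p = 3.4e-10). Cfp was 91.3 and 95.6 CPM against 10.5 and 11 CPM (-3.05, SE 0.442, adjusted p = 2.8e-06), and Fcna, ficolin A, was 260 and 116 CPM against 2.09 and 0 CPM (adjusted p = 4.8e-09). C4b fell from 291 and 212 to 142 and 98.6 CPM (-1.06, SE 0.248, adjusted p = 0.0027) and C2 from 102 and 79.7 to 52.4 and 26.8 CPM (-1.24, SE 0.352, adjusted p = 0.016), and both calls were lost without either control IgG replicate and in DESeq2. In ATV-CD98hc Clu fell from 125 and 110 CPM, 12 UMIs in each library, to 2 and 1 UMIs (-3.91, SE 0.859, adjusted p = 0.0041), a call lost without either of its replicates. The summed astrocyte list in these libraries was 575 and 1401 CPM in the low bin, with all 8 markers present, and 90.2 and 42.8 CPM in the high bin, with Aqp4 and Ntsr2 at 0 in both. The Ifi207/Adam33-marked sub-cluster went from 24.0% to 88.6% there, and the part of either in the Clu values was not tested. In ATV-TfR edgeR called none of the 14. The fall of Colec12, Cfp and Fcna in control IgG went with a low bin of 79.2% Lyve1/Cd163-marked cells and a high bin of 96.8% Ifi207/Adam33-marked cells, and the part of that shift was not tested.

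Astrocyte-like cells of ATV-TfR mice had 6 genes higher and 2 lower of 26 in the high bin, beside 13.1% higher and 8.4% lower of all genes. C4b was 22.3 and 15.2 CPM in the negative bin and 70.4 and 78.1 CPM in the high bin (2.10, SE 0.199, adjusted p = 5.5e-07). It was called in every setting run and in cells without UMIs of the endothelial list (2.50, adjusted p = 5.7e-08). Clu was 2366 and 2517 against 4864 and 4732 CPM (1.08, SE 0.175, adjusted p = 2.2e-04), a call that ended when replicate 1 of ATV-TfR was left out (1.00, adjusted p = 0.077). Csmd1 was 90.8 and 78.5 against 127 and 198 CPM (1.04, SE 0.169, adjusted p = 2.4e-04), and leaving out replicate 2 of ATV-TfR ended the call (0.60, adjusted p = 0.1). Cd93, a receptor known from endothelial cells, had no UMI in the negative bin and 16.1 and 11.9 CPM in the high bin (adjusted p = 1.5e-07). Cd59a, which blocks the terminal pore, was 1.56 and 1.29 against 13.4 and 7.53 CPM (3.04, adjusted p = 8.3e-06), and the endocytic receptor gene Lrp1 328 and 360 against 380 and 403 CPM (0.29, adjusted p = 0.034). Masp1, a lectin pathway protease gene, was lower, at 33.1 and 27.8 against 17.4 and 18.6 CPM (-0.65, adjusted p = 0.0045). Itgam went from 19 and 18 UMIs to 0 (adjusted p = 9.5e-04). The calls of Masp1 and Lrp1 were lost without either ATV-TfR replicate and that of Itgam without replicate 1. None of these 5 was called in cells without UMIs of the endothelial list. The values of that list stand with the C1q results above. In ATV-CD98hc mice 5 genes were higher and 1 lower of 26 (6.23% and 4.2% of all genes), and none of the 6 was called in such cells. There Clu was lower (-0.65, SE 0.178, adjusted p = 0.024), the opposite sign to ATV-TfR, and the call was lost without either ATV-TfR replicate. Colec12 rose from 34.6 and 24.7 to 66.6 and 66.4 CPM (1.09, adjusted p = 0.0019), a call lost without ATV-CD98hc replicate 2. Cd93 went from 2 and 3 UMIs to 19.9 and 20.3 CPM (6.39, adjusted p = 1.4e-06). Cd59a was 1.13 and 0.571 against 12.9 and 6.78 CPM (3.37, adjusted p = 3.9e-04), lost without ATV-CD98hc replicate 1. Lrp1 was 316 and 331 against 418 and 427 CPM (0.35, adjusted p = 0.035), lost without any 1 of the 4 ATV replicates. C4b gave 0.88 (adjusted p = 0.06).

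In endothelial-like cells Clu fell in the high bin of both ATVs, from 648 and 983 to 11 and 10.7 CPM in ATV-TfR mice (-6.09, SE 0.336, adjusted p = 3.5e-12), and from 360 and 526 to 3.47 and 5.86 CPM in ATV-CD98hc mice (-6.36, SE 0.359, adjusted p = 1.3e-11). Both calls held in every setting run. Of 26 genes, 1 was higher and 4 lower in ATV-TfR (1.95% and 4.71% of all genes), and 1 was lower in ATV-CD98hc (2.77%). Cd59a rose in ATV-TfR from 156 and 149 to 212 and 230 CPM (0.67, adjusted p = 0.043). Itgam, with 4 and 1 UMIs in the negative and 5 and 4 in the far larger high libraries (adjusted p = 0.0013), and Cfb, with 2 UMIs in each negative library and 25 and 6 UMIs in the high ones (adjusted p = 0.042), were called lower per UMI sequenced, from few counts. All 3 calls were lost without ATV-TfR replicate 1. The summed astrocyte marker list was 159 and 401 CPM in the negative endothelial-like cells of ATV-TfR mice and 114 and 115 CPM in the high bin, and 311 and 313 against 85.0 and 86.0 CPM in ATV-CD98hc mice. The part of astrocyte RNA in the Clu values was not tested.

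Fibroblast-like cells of ATV-CD98hc mice had 2 genes higher and 3 lower of 24 in the high bin, beside 5.33% and 4.72% of all genes. Vtn fell from 5102 and 4283 to 290 and 656 CPM (-3.28, SE 0.581, adjusted p = 4e-04). Clu fell from 151 and 344 to 38.1 and 32.8 CPM (-2.72, adjusted p = 5.3e-05), a call lost with more suspected doublets removed (-0.57, adjusted p = 0.78). Colec12 fell from 1674 and 1307 to 797 and 721 CPM (-0.96, adjusted p = 0.0041), lost without ATV-CD98hc replicate 1 (0.15) or 2 (0.054). C1ra was 12.1 and 17.7 against 55.5 and 73.4 CPM (2.18, SE 0.643, adjusted p = 0.028), lost without any 1 of the 4 ATV replicates and in DESeq2 (0.098).

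In control IgG, with 1 negative library whose spread was taken from the other groups, 3 were higher and 4 lower, beside 5.19% and 7.43% of all genes. Vtn was 4534 CPM there and 23.7 and 50.02 CPM in the high bin (-6.83, SE 0.768, adjusted p = 8.4e-07). Both Vtn calls were kept in every setting that gave a value, but the negative library of control IgG could not be left out. Colec12 was 1616 against 578 and 705 CPM (-1.29, adjusted p = 6.6e-04) and C2, a classical pathway component, 19.9 against 121 and 73.4 CPM (2.28, adjusted p = 0.0063). Clu was 273 against 36.8 and 68.4 CPM (-2.28, adjusted p = 2.2e-04), lost with more suspected doublets removed (-1.07, adjusted p = 0.22). C1s1 had no UMI in the negative library and 10 and 20 UMIs, 26.3 and 33.4 CPM, in the high ones (adjusted p = 0.012), lost in DESeq2 (0.052). Masp1 went from 9 UMIs to 1 and 0 (adjusted p = 0.043), lost in most settings.

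The bins of fibroblast-like cells came from different clusters. One of 848 cells, led by Dcn and Cemip with Slc6a13 and Aldh1a2 among its leading genes, made up 97.1% and 92.6% of the negative and 8.43% and 12.8% of the high libraries of ATV-CD98hc, and 94.7% of the negative library of control IgG. The other, of 1725 cells and led by Coch and Lum, made up all cells of 1 and 97.7% of the other high library of control IgG. Vtn was 5803 CPM in the first and 52.4 CPM in the second. Both fibroblast-like comparisons of bins, that of C1qa above included, therefore also compare these clusters. The summed pericyte list, which does not hold Vtn, was 439.7 and 1069 CPM in the negative and 387 and 593 CPM in the high bin of ATV-CD98hc, and 489 against 397 and 492 CPM in control IgG. Of its 7 markers, 5 to 7 had a UMI in each library, with Higd1b at 0 in 1 negative and 3 high libraries. The summed astrocyte list was 6222 and 8636 against 465 and 574.5 CPM, and 9279 against 147 and 215 CPM in control IgG. The summed smooth muscle list was 308 CPM in the negative and 1490 and 717 CPM in the high libraries of control IgG. In ATV-CD98hc it was 2421 and 291 CPM in the negative and 906 and 395 CPM in the high bin. Of that list, Cnn1 was at 0 in all these libraries but the negative replicate 1 of ATV-CD98hc. The part of any of these lists or of the clusters in these values, C1s1 included, was not tested.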

How the data were processed

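The deposited matrix holds counts, whole numbers of UMIs per gene and barcode with no normalization, made by the authors with Cell Ranger 7.1.0 per the file headers. The submitters' processing notes also name Seurat 4 and 5 and the builds mm10 and GRCm38, without a role or order. The deposited lists of barcodes, genes and libraries are of another kind (names, not counts). The strand setting of the counting is not given in the sources used here. Gene positions are from GENCODE vM21 on GRCm38, and promoters from RefSeq on GRCm38.p6.

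Of 265025 barcodes, 249715 were kept, on a minimum of 500 genes and 800 UMIs and a mitochondrial share of UMIs of up to 10%. Scrublet (scanpy 1.11.5, Python 3.11.15) was run per library and 15689 doublets were removed, at its own threshold or, in 8 libraries where that marked under 0.5% or over 25%, above percentile 94 of the score. Of the passing barcodes, 7598 sequences occurred in 2 or more libraries, at most 1.14% of the smaller library of a pair. Log-normalised counts, 2000 variable genes (complement genes left out), 50 principal components and Leiden clustering at resolution 1 gave 42 clusters. The 16736 cells of immune clusters were clustered again into 27 sub-clusters. A cluster was named when a share of 0.5 of a marker list was detected, but not when several lists passed and none clearly led, when markers of another list led, when an immune sub-cluster also passed a list of other cells, or with under 50 cells. Of 63 clusters and sub-clusters, 47 were named and 4.19% of cells stayed unnamed. The naming rules were refined after the clusters were seen, and the members, gene lists and marker lists were chosen with earlier results of these data known.

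UMIs were summed per class and library with at least 20 cells, and tested with edgeR 4.0.16 (limma 3.58.1, R 4.3.3): TMM factors, its filter on low counts, 1 mean per treatment and bin, quasi-likelihood test, and Benjamini-Hochberg adjustment over all genes tested. There were 21 comparisons, of which 10 were added after cell numbers were seen. The 7 differences between treatments and 14 of the class levels were chosen after results were seen. Planned comparisons of high and negative bins without enough cells were not run: microglia-like cells of ATV-TfR and control IgG, border macrophage-like cells of every treatment, endothelial-like and astrocyte-like cells of control IgG, and fibroblast-like cells of ATV-TfR. Sex was assigned to cells by Xist and Y-linked UMIs. The p-values measure the spread between 2 pools per treatment. The negative bin of control IgG has 1 library, which is assumed to vary like the other groups.

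All 6 members are named. Values of some other genes are not reported here, though counts over lists include them. Of the other complement genes, up to 6 per class and comparison were named, called genes first by size of change, and every other called gene that can be reported was added afterwards. Same-numbered libraries of a treatment come from the same pool of mice. Their deviations from the group means correlated at 0.02 to 0.15 in 9 pairs of bins, and a fit with the pool as a block was an alternative. The others were RLE factors, DESeq2 1.42.0, no filter or a stricter one of 50 UMIs, at least 50 cells, and deeper cells. Each replicate was also left out. A further alternative removed more suspected doublets, the kept cells with the highest doublet scores in each library. The last took endothelial-like cells without UMIs of the microglia and border macrophage lists, and cells of other classes without UMIs of the endothelial list. The test was tested on simulated data: with 193 genes changed in the design of the microglia-like low against negative bin of ATV-TfR, 183 were recovered with the right sign and 14 others were called among 10102 tested. The changes put in were large, with median fitted log2 differences of 2 for raised and -2.12 for lowered genes. The members differed by 0.10 to 0.50 in that comparison, so the recovery does not apply to differences of their size.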

Additional observations from a re-analysis of the deposited data

Results flagged for a closer look

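Control IgG pool 1 lay far from the other 5 pools of microglia-like cells for C1qb and C5ar1. C1qb was 11330 CPM there against 6068 to 8007 CPM in the others, and C5ar1 was 213.9 CPM against 66.9 to 91.1 CPM. In each case the gap to the nearest pool, divided by the range of all 6, exceeded Dixon's critical value. Chance flags about 1 in 20 groups. This pool held 29 microglia-like cells, 26 of them from the low bin.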

How the results depend on the processing

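The counts of members called changed with the processing as follows. In microglia-like cells, the low bin of control IgG went from 0 to 1 with RLE factors, with DESeq2 and without a filter on low counts, and the medium bin of ATV-TfR from 0 to 1 with RLE factors and DESeq2. Leaving out 1 replicate gave 0 to 1 in both. With the pool as a replicate block, 1 member instead of 0 was called in the ATV-TfR medium, ATV-CD98hc high and ATV-CD98hc medium bins of microglia-like cells and in the ATV-CD98hc high bin of astrocyte-like cells, 2 instead of 1 in border macrophage-like cells of ATV-CD98hc and 2 instead of 1 in fibroblast-like cells of control IgG. The block changed no other count. In border macrophage-like cells of ATV-CD98hc the count fell from 1 to 0 in cells without UMIs of the endothelial list and in cells with at least 1500 UMIs. It also changed in some fits without 1 replicate. In endothelial-like cells of ATV-TfR the count fell from 2 to 0 with more suspected doublets removed. In endothelial-like cells of ATV-CD98hc it fell from 2 to 0 with at least 50 cells per library. There it fell to 1 in cells without UMIs of the microglia and border macrophage lists, and it changed in some fits without 1 replicate. In astrocyte-like cells of ATV-CD98hc it rose from 0 to 1 without a filter. In fibroblast-like cells of control IgG it went from 1 to 0 with DESeq2, with at least 50 cells and with more suspected doublets removed. It went to 2 without a filter and with the stricter filter, and changed in some fits without 1 replicate. The cause of each change was not tested. Shares of cells with a UMI depend on depth. Thinned to 2000 instead of 1000 UMIs, C1qa, C1qb and C1qc were found in 98.9%, 98.7% and 98.05% of microglia-like cells and 98.8%, 97.3% and 96.2% of border macrophage-like cells. C3 was found in 34.1% of neutrophil-like, 27.8% of monocyte-like and 5.397% of ependymal-like cells, C3ar1 in 44.3% of border macrophage-like and 25.65% of microglia-like cells, and C5ar1 in 32.05% and 14.0% of these. Averaged over cells instead of summed, C1qb and C1qc in border macrophage-like cells were 2881 and 2438 CPM, C3ar1 in microglia-like cells 145 CPM and C5ar1 in neutrophil-like cells 780.4 CPM. Over all alternatives, 365 values of these counts and levels stayed near the reported one and 54 moved. For a level with 1 pool left out, near meant within 1 SD over pools. Leaving out 1 pool cannot move a mean that far, so these values could only count as near and say nothing about stability. For single members in a comparison that some setting called, 204 values kept their side of the threshold, 22 passed it and 22 no longer did. One changed sign, C3ar1 in endothelial-like cells of ATV-TfR, not called, which ran from -6.13 to 3.06 (log2) with 1 replicate left out. Another 69 combinations of a result and a setting gave no value. Libraries of the control IgG low, ATV-TfR medium and ATV-CD98hc high bins held 24 to 63 microglia-like cells. Treatment and genotype cannot be told apart. Each comparison rests on 2 pools per treatment, or on 1 in the negative bin of control IgG, and classes were rebuilt from markers.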
